A study of Homo sapiens with 6 samples.

Results

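Metallothioneins and the genes around them that handle zinc were followed by RNA-Seq in the human lung fibroblast line MRC5. The members were 9 genes of the 58676 gene identifiers in the count table, found by their gene symbols: the metallothioneins MT1A, MT1E, MT1F, MT1G, MT1M, MT1X and MT2A, the transcription factor MTF1 and the zinc exporter SLC30A1. The fibroblasts were kept for 24 h in conditioned medium (CM) from ATII ER:KRASV12 cells, a human alveolar type II epithelial line that carries a RAS protein which 4-hydroxytamoxifen (4-OHT) switches on. The donor cells were left as controls for 3 libraries (control ATII CM) and given 4-OHT for the other 3 libraries (4-OHT ATII CM), so that the inducible RAS construct was in the CM donor line of both groups and not in the fibroblasts. All libraries are of polyA RNA from a single fibroblast line, and the labels do not say whether replicates are separate cultures, so that p values measure only the spread between these libraries, which may be technical.

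Metallothioneins are small proteins, rich in cysteine, that bind zinc, copper and cadmium. When free zinc rises, MTF1 takes up zinc, enters the nucleus and binds short DNA motifs called metal response elements (MREs) in front of metallothionein genes and SLC30A1, whose protein pumps zinc out of the cell. Glucocorticoids and oxidative stress also raise metallothionein transcripts, and metallothionein mRNA is therefore widely used as a readout of zinc and stress.

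Library totals ranged from 17691849 to 26389449 counts. Levels are given in CPM, the counts of a gene brought to a common library size with the TMM factor, which levels out differences in composition between libraries. Control replicate 2, the library with the fewest counts, stood apart on the first principal component, and the calls that changed without it are given beside the values they touch. All 10 fibroblast markers checked were detected, with a summed level of 41095 to 44612 CPM in control and 42969 to 44711 CPM in 4-OHT ATII CM. Of these, 4 (COL3A1, DCN, LUM and PDGFRA) rose past the threshold (adjusted p under 0.05), with edgeR and in all 17 alternative fits. VIM fell, a call that held in 11 of the 17 and not with the replicate block. Over all genes tested with edgeR, 2.95% were higher and 2.76% lower past the threshold. Without control replicate 2, COL1A1 (adjusted p = 1.80e-05) and COL1A2 (adjusted p = 0.0411) were lower past the threshold as well; over the 17 alternatives COL1A1 was so in 7 and COL1A2 in 1. The 10 epithelial markers summed to 93.0 to 98.9 CPM in control and 90.6 to 96.3 CPM in 4-OHT ATII CM, with NKX2-1 at 0 and CDH1, SFTPB and SFTPC under 10 counts. The 3 immune markers summed to 0.609 to 1.01 CPM in control and 1.14 to 1.90 CPM in 4-OHT ATII CM, almost all of it CD14. CD14 did not pass the threshold (adjusted p = 0.0597 with edgeR) but was higher past it in 5 of the 17 alternatives, among them the fit without control replicate 2 (adjusted p = 0.0432), and the part of these markers in the results was not tested.

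The metallothionein genes are near copies of each other, so the sequences decide how well reads can be told apart. The coding sequences of the metallothioneins with at least 10 counts, and of MT1L, a transcribed pseudogene with more counts than MT1X, are shown in full because their differences are what a read must hold to be placed. They are GENCODE release 44 sequences on GRCh38, 186 bases each, and capitals mark the bases that differ from MT1E. The coding exons lie on the plus strand at chr16:56625852-56626971 (MT1E), chr16:56617563-56618680 (MT1L), chr16:56682541-56684049 (MT1X) and chr16:56608656-56609354 (MT2A).
MT1E: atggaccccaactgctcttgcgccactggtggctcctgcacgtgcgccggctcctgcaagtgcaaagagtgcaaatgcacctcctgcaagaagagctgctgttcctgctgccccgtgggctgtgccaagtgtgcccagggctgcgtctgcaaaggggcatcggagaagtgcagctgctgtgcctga
MT1L: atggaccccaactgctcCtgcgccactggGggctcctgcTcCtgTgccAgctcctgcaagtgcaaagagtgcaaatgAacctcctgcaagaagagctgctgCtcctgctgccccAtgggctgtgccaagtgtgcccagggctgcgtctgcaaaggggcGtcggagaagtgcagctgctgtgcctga
MT1X: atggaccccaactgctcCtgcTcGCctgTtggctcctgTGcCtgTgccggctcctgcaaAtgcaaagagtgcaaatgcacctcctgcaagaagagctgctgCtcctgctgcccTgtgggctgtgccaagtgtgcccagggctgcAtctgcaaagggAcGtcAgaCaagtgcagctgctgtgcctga
MT2A: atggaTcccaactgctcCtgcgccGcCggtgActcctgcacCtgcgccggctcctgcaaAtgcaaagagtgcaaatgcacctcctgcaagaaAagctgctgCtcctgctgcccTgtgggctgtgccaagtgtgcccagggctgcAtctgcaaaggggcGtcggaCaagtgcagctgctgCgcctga

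MT1L differed from MT1E at 10 bases (94.6% identity), MT2A at 14 (92.5%) and MT1X at 17 (90.9%). A changed base in MT1L makes a stop codon after 25 of the 61 codons. The longest run of identical bases between any 2 of the 7 coding sequences of the members was 96, between MT1X and MT1G, and reads were 150 bases from each end of a fragment. No member had a stretch of exon of at least 100 bases that recurs elsewhere in GRCh38 with at least 98% identity. Less alike stretches were a 644-base stretch that MT1E shares with MT1M at 93.9% identity, a 236-base stretch that MT1M shares with the pseudogene MT1JP at 95.3%, and a 235-base stretch that MT2A shares with the pseudogene MT2P1 at 95.7%. How reads with several possible places were counted is not given in the sources used here, so the split between near-identical copies is uncertain, and sums over the family are given beside the single genes. Exons of MT1X also overlap those of a long noncoding RNA, ENSG00000259827, on the same strand, and MT1X counts are uncertain for that reason as well.

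Promoters are shown because MREs are the known link from zinc to these genes. The RefSeq promoter table (GRCh38.p14) held 4 of the 9 members, MT2A, MT1X, SLC30A1 and MTF1; MT1A, MT1E, MT1F, MT1G and MT1M had no entry. An MRE was searched as TGCACNC or TGCGCNC on either strand, in the 250 bases before and 50 bases after the gene start. The 250 bases before the start are printed in the direction of the gene, with MREs in capitals, for MT2A (chr16:56608334-56608583, plus strand), MT1X (chr16:56682220-56682469, plus strand) and SLC30A1 (chr1:211579162-211579411, minus strand).
MT2A: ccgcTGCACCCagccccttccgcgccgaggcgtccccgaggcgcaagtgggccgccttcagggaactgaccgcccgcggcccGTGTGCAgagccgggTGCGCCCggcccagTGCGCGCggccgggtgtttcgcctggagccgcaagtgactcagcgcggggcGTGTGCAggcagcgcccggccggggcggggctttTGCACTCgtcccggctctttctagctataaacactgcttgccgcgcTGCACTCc
MT1X: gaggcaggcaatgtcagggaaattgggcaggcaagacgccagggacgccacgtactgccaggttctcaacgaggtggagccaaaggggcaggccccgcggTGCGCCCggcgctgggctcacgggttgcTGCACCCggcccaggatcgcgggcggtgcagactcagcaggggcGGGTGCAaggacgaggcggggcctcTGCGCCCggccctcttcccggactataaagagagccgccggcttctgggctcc
SLC30A1: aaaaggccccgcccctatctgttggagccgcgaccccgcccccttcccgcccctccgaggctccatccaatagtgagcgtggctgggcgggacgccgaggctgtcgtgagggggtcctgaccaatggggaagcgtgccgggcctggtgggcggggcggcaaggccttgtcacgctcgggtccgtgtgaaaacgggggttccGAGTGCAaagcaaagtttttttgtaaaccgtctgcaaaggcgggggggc

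The MT2A promoter held 8 MREs in the window of 300 bases, 7 of them before the start, MT1X held 4, SLC30A1 held 2, and MTF1 held 0. Of the 35116 promoters in the table, 29.6% held at least 1 MRE, 8.60% at least 2, 0.601% at least 4 and 0.162% at least 5. These matches describe letters and not binding. The printed MT2A stretch lies inside an exon that the deposited table gives to MT2A, and 46 bases of the MT1X stretch lie in an MT1X exon there, so that reads from them would have been counted for these genes.

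MRC5 cells held mostly MT2A transcripts. MT2A (ENSG00000125148, chr16:56608199-56609497), the main metallothionein of most human tissues, had 38322 counts over the 6 libraries and MT1E (ENSG00000169715, chr16:56625475-56627112) had 5144. MT1X (ENSG00000187193, chr16:56682424-56684196) had 282. The other 4 metallothionein members were close to absent, with 8 counts over all libraries for MT1M, 6 for MT1A, 5 for MT1F and 5 for MT1G. In each library these 4 genes had from 0 to 4 counts, around the limit of 3 counts that a count of 0 allows (0.114 to 0.170 CPM, counting error only), and they were not tested.

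Of the metallothionein genes outside the members, MT1B, MT1H, MT1HL1, MT3 and MT4 had 0 counts in all libraries, which allows up to 3 counts in each. Of 9 metallothionein pseudogenes found in the table, MT1L (ENSG00000260549, chr16:56617476-56618818) had 1170 counts, MT1P1 and MT1XP1 had 3 each, and the other 6 had 0. Along the cluster on chromosome 16, the genes with more than 10 counts were MT2A, MT1L at 9.28 kb from it, MT1E at 17.3 kb, and MT1X at the far end, at 74.2 kb. The 4 members with few counts lie between MT1E and MT1X.

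**Figure D1:**
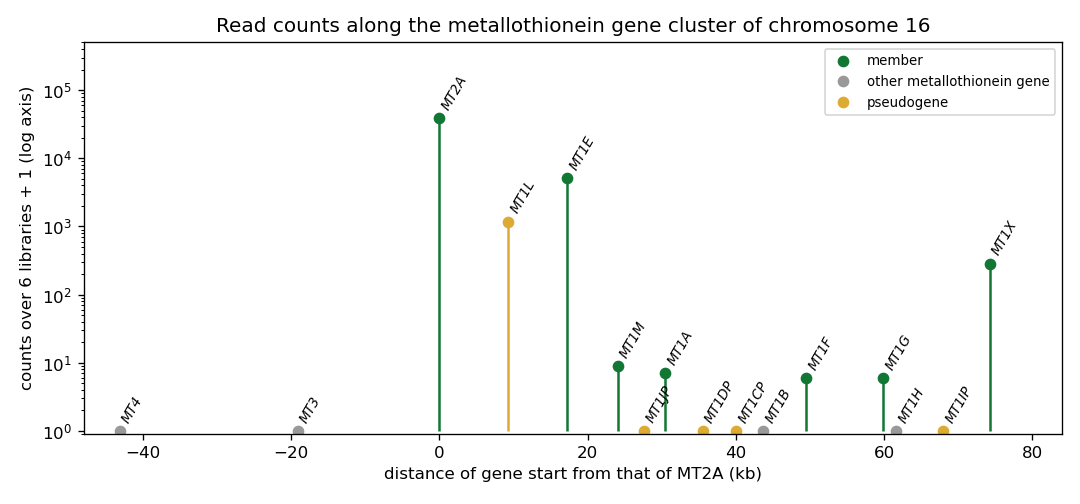
Counts summed over the 6 libraries plus 1, on a log axis, for each metallothionein gene and pseudogene of the chromosome 16 cluster, against the distance of its start from that of MT2A in kb. Green stems are members, grey points other metallothionein genes and orange points pseudogenes. MT2A (38322 counts), MT1E (5144), MT1L (1170) and MT1X (282) stand above all others, which have 8 counts or fewer.

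Per kb of merged exon, the mean level over all libraries was 218 CPM per kb for MT2A (range 194 to 245), 36.5 for MT1E (31.2 to 43.0), 9.73 for SLC30A1 (8.92 to 10.3), 2.92 for MTF1 (2.79 to 3.04) and 1.19 for MT1X (0.996 to 1.40). The ranges of neighbours in this order did not overlap, whereas those of the 4 genes that follow (MT1A, MT1M, MT1G and MT1F) did. Merged exons add rare transcripts to the length, and with the length of the canonical GENCODE transcript, chosen after seeing the data, MT1X (5.21 CPM per kb) came before MTF1 (2.95 CPM per kb). MT2A (707 CPM per kb), MT1E (51.5) and SLC30A1 (9.04) kept their order with that length, but the level of MT2A and its distance from MT1E depend strongly on which length is used.

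Whether CM from RAS-activated ATII cells changed these genes was tested with edgeR's quasi-likelihood test over 19072 genes, with Benjamini-Hochberg adjusted p under 0.05 as the threshold for a DEG. Of the 5 members with enough counts, 1 was a DEG, MT1E, which fell in 4-OHT ATII CM. Over all genes tested, 5.72% were DEGs, 2.76% lower and 2.95% higher in 4-OHT ATII CM, and with DESeq2, where MT1E was likewise the member called, 5.03% were DEGs, and 1 DEG among 5 members is too few to read against these shares. In bulk RNA, fewer cells that express a gene and less RNA per cell cannot be told apart.

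MT1E encodes a metallothionein of the MT1 group and was the second most abundant of the metallothioneins. It stood at 40.5, 40.8 and 45.2 CPM in the 3 control libraries and at 35.0, 35.9 and 32.9 CPM in the 3 libraries of 4-OHT ATII CM. Each 4-OHT library was below each control library, as for 10.4% of all genes tested (22.1% with either direction). The mean went from 42.2 ± 2.61 to 34.6 ± 1.56 CPM (SD, n = 3 each), a fall of 18.1% in the edgeR fit. The log2 fold change was -0.29 (SE 0.0547, adjusted p = 0.00454). MT1E was also a DEG in all 17 other tests, normalizations, filters and sets of libraries tried, with log2 fold changes from -0.32 to -0.24.

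The pseudogene MT1L, which lies beside MT1E, was at 8.67, 10.5 and 9.62 CPM in control and at 8.72, 8.38 and 6.81 CPM in 4-OHT ATII CM. The groups overlapped, and MT1L was not a DEG (log2 fold change -0.27, SE 0.111, adjusted p = 0.210). Added up, MT1E and MT1L went from 51.8 ± 2.83 to 42.6 ± 2.51 CPM (SD, n = 3 each) with no overlap between groups. Most of this sum is MT1E, so it largely repeats the values of MT1E. The sum does not depend on how reads were split between the gene and the pseudogene. Reads left uncounted or counted for another copy would still be missing from it.

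MT2A, the main metallothionein of these cells, was at 297, 273 and 319 CPM in control and at 252, 272 and 289 CPM in 4-OHT ATII CM. The highest 4-OHT library lay above the lowest control library, which was control replicate 2. The mean went from 296 ± 23.0 to 271 ± 18.5 CPM (SD, n = 3 each), and the log2 fold change of -0.13 (SE 0.0536) did not pass the threshold (adjusted p = 0.216 with edgeR). Without control replicate 2 MT2A passed it (-0.18, SE 0.0440, adjusted p = 0.0125), and it also passed when all genes with at least 1 count were fitted (-0.12, adjusted p = 0.0252). In the other 15 alternatives it did not, and its log2 fold change was below 0 in all 17.

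MT1X, a metallothionein at the end of the cluster, was at 2.16, 2.46 and 1.77 CPM in control and at 1.96, 2.49 and 1.79 CPM in 4-OHT ATII CM. The groups overlapped almost fully. With 40 to 62 counts per library its log2 fold change of -0.02 had an SE of 0.200 (adjusted p = 0.974), and a change of the size seen in MT1E was not detectable at this depth.

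The 7 metallothioneins together stood at 340, 316 and 366 CPM in control and at 289, 310 and 324 CPM in 4-OHT ATII CM. The means were 341 ± 24.8 and 308 ± 17.4 CPM (SD, n = 3 each). The groups overlapped only in that control replicate 2 (316 CPM) lay below 4-OHT replicate 3 (324 CPM). The other control libraries, at 340 and 366 CPM, lay above all 3 libraries of 4-OHT ATII CM. The other 4-OHT libraries, at 289 and 310 CPM, lay below all 3 control libraries. MT2A made up 86.9 ± 0.575% of their counts in control and 88.0 ± 1.14% in 4-OHT ATII CM, and MT1E 12.4 ± 0.488% and 11.3 ± 1.01% (SD, n = 3 each), again with overlap. Whether MT1E changed by another amount than MT2A was tested on their ratio, which was 13.7, 15.0 and 14.2 MT1E counts per 100 MT2A counts in control and 13.9, 13.2 and 11.4 in 4-OHT ATII CM. The log2 difference of the ratio was -0.16, with p = 0.2 by an exact two-sided permutation test (0.8 after adjustment over 4 ratios), whose smallest possible p is 0.1. The test could not pass the threshold whatever the ratios, so it cannot settle whether MT1E and MT2A responded differently.

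**Figure D2:**
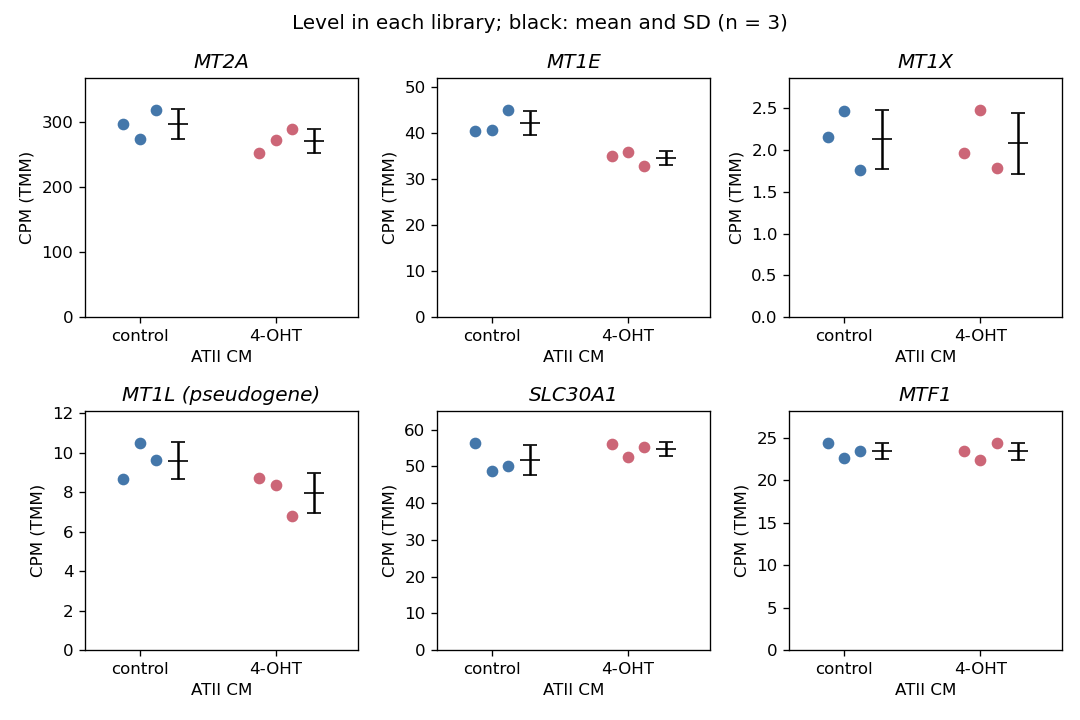
Level in CPM of MT2A, MT1E, MT1X, the pseudogene MT1L, SLC30A1 and MTF1 in each library of control (blue) and 4-OHT (red) ATII CM, with the mean and SD of 3 libraries in black and each axis starting at 0. The groups do not overlap for MT1E (40.5 to 45.2 against 32.9 to 35.9 CPM) and overlap for the others.

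MTF1 (ENSG00000188786, chr1:37809567-37859620, minus strand), the zinc sensor, was at 24.4, 22.6 and 23.4 CPM in control and at 23.4, 22.4 and 24.4 CPM in 4-OHT ATII CM. The groups covered nearly the same range, and the log2 fold change was -0.0045 (SE 0.0610, adjusted p = 0.986). SLC30A1 (ENSG00000170385, chr1:211571568-211578742, minus strand), the exporter at the cell surface and a target of MTF1, was at 56.5, 48.8 and 50.1 CPM in control and at 56.1, 52.6 and 55.4 CPM in 4-OHT ATII CM. Its highest library was a control library, and its log2 fold change was 0.08 (SE 0.0524, adjusted p = 0.517). Neither gene passed the threshold in any of the 17 alternatives, which reuse the same libraries. The estimate for SLC30A1 was above 0 in all 17 and that for MT1E below 0, and whether the 2 genes differ was not tested.

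The other zinc transporters were followed in full families. Of the other 9 genes of the SLC30 exporter family, 5 had enough counts. With edgeR, DESeq2 or limma-voom 0 were DEGs (1 of 5 at unadjusted p under 0.05 with edgeR, as were 17.3% of all genes). Their median log2 fold change was 0.04 against -0.0020 over all genes. The most abundant were SLC30A9 (98.4 CPM over all libraries, log2 fold change 0.03), SLC30A5 (65.8 CPM, 0.09) and SLC30A7 (54.8 CPM, 0.09).

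Of the 14 SLC39 importers, which bring zinc into the cytosol, 11 had enough counts, 2 rose in 4-OHT ATII CM and 0 fell. Their median log2 fold change was 0.13, and the share of all genes that rose was 2.95%. At unadjusted p under 0.05 with edgeR there were 6 of the 11, against 17.3% of all genes. The groups did not overlap for 6 importers that were higher and 2 that were lower, against 11.7% and 10.4% of all genes. SLC39A6, a zinc importer of the plasma membrane, stood at 205, 198 and 209 CPM in control and at 238, 235 and 231 CPM in 4-OHT ATII CM, with no overlap (log2 fold change 0.20, SE 0.0341, adjusted p = 0.00214). SLC39A10, a close relative that can pair with it, stood at 37.7, 37.0 and 36.8 CPM in control and at 44.2, 41.3 and 44.8 CPM in 4-OHT ATII CM (0.22, SE 0.0473, adjusted p = 0.00943). SLC39A10 was no longer a DEG without control replicate 3 (adjusted p = 0.0554) or without 4-OHT replicate 3 (adjusted p = 0.0830), whereas SLC39A6 was a DEG in all 17 alternatives.

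The remaining importers did not pass the threshold, and their estimates lay on both sides of 0. SLC39A14, which also carries iron and manganese, had a log2 fold change of -0.09 (adjusted p = 0.187), and SLC39A13, an importer of the early secretory pathway, had -0.02 (adjusted p = 0.816). SLC39A8 had the largest estimate, 1.12 with an SE of 0.484, at 0.338 CPM (adjusted p = 0.237), and is named for its place in the plot of fold changes, after its value was seen. SLC39A7 had 1 count over all libraries, and 2791 of its 2845 exon bases recur on alternate contigs of the assembly, so its level is uncertain.

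**Figure D3:**
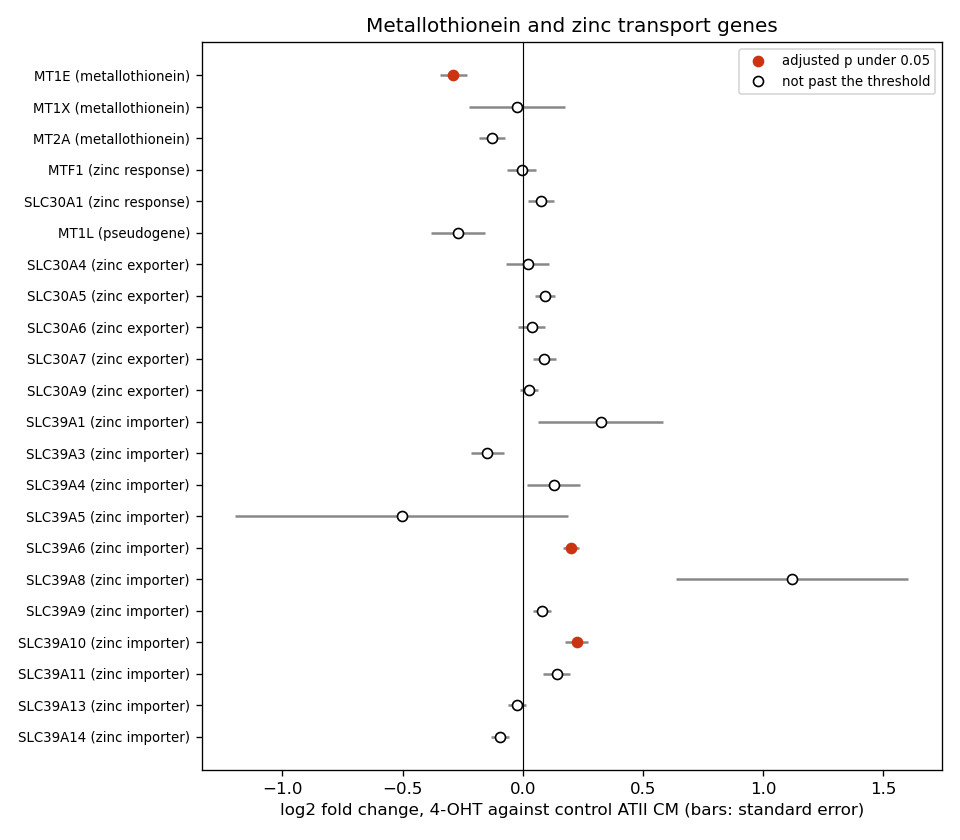
Log2 fold change of 4-OHT against control ATII CM, with its standard error, for the 5 members tested, the pseudogene MT1L and the SLC30 and SLC39 zinc transporters tested. Filled red points passed the threshold (MT1E at -0.29, SLC39A6 at 0.20 and SLC39A10 at 0.22), and open points did not.

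Other metal and stress genes give the setting of the metallothionein values. Of 12 copper genes, 11 were tested and 0 were DEGs with edgeR, DESeq2 or limma-voom (1 of 11 at unadjusted p under 0.05 with edgeR, against the same 17.3%), and SOD1, the copper and zinc superoxide dismutase, had a log2 fold change of 0.01. Of 14 iron genes, all tested, 1 was higher and 0 lower past the threshold with edgeR, against 2.95% and 2.76% of all genes, and 2 were higher with DESeq2 and with limma-voom, where NCOA4, a ferritin receptor, joined (adjusted p = 0.0521 with edgeR). SLC40A1, which encodes the iron exporter ferroportin, was the gene that rose in each of these fits and went from 18.2 ± 0.172 to 24.2 ± 1.06 CPM (SD, n = 3 each; log2 fold change 0.41, SE 0.0623, adjusted p = 0.000775). The ferritin chains FTL (0.12, adjusted p = 0.101) and FTH1 (0.08, adjusted p = 0.339) were far more abundant. FTL passed the threshold in 5 of the 17 alternatives, among them edgeR with the replicate block (adjusted p = 0.0287), and FTH1 in 0. Without control replicate 2, NCOA4 was higher and TFRC, the transferrin receptor, was lower past the threshold (adjusted p = 0.0396 and 0.0415). Of 14 genes of the heat shock and oxidative stress responses that metals induce, 12 were tested and 2 rose, NQO1 (0.16, adjusted p = 0.0119) and HMOX1 (0.19, adjusted p = 0.0318), which encode a quinone reductase and heme oxygenase 1. With limma-voom, HSPH1, a heat shock protein, was lower as well (adjusted p = 0.0451), as it was in 4 of the 17 alternatives in all. NQO1 and HMOX1 each lost the threshold in 4 of the 6 fits that leave out a library. Without control replicate 2, HMOX1 did not pass (adjusted p = 0.0505), NQO1 did, and HSPH1 and SLC7A11, the cystine importer, were lower (adjusted p = 0.0332 and 0.000288).

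The glucocorticoid receptor gene and its known targets, a list that shares the hormone with MT2A, gave 3 higher and 0 lower of 11 tested (12 listed) with edgeR, DESeq2 and limma-voom, beside 2.95% and 2.76% of all genes with edgeR, and had a median log2 fold change of 0.06. The count lower was 1 in 3 alternatives, where DUSP1, a phosphatase, passed the threshold: with at least 1 count as the filter and with the replicate block, without or with removal of the length trend. The count higher was 4 with at least 1 count as the filter and without 4-OHT replicate 1. There SGK1, another gene of this list, passed the threshold as well (adjusted p = 0.0379 and 0.0468 with edgeR). The 3 genes that rose were KLF9, a transcription factor (0.36, adjusted p = 0.000162), CRISPLD2, a secreted protein (0.19, adjusted p = 0.00349), and GLUL, glutamine synthetase (0.21, adjusted p = 0.00552, but 0.0543 without control replicate 3). MT1E and MT2A had estimates below 0 where these 3 genes rose, and the part of the hormone was not tested. The targets FKBP5 (-0.13, adjusted p = 0.440), PER1 (-0.11, adjusted p = 0.574) and TSC22D3 (0.06, adjusted p = 0.666) did not pass the threshold and are named, after their values were seen, as widely used hormone readouts.

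The genes whose levels ran closest to MT2A over the 6 libraries, by the root mean square difference of log2 CPM centred on each gene's mean, were NEK3 (0.0264), LMLN (0.0269), ZBTB8OS (0.0317), BTBD19 (0.0326) and ZDHHC21 (0.0339), out of 13051 genes with a mean of at least 1 CPM. None of these 5 was a DEG with edgeR, but they were chosen for likeness to MT2A, which was not one either. They share with MT2A the libraries and their scaling, and no metallothionein was among them.

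The tests, normalizations, filters and sets of libraries moved MT1E and MT2A to different extents. For MT1E the estimate nearest 0 came from libraries thinned to the smallest total (-0.24), with adjusted p between 9.24e-06 and 0.0337 over the alternatives. For MT2A the log2 fold change ran from -0.18 to -0.07 and the adjusted p from 0.0125 to 0.583.

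**Figure D4:**
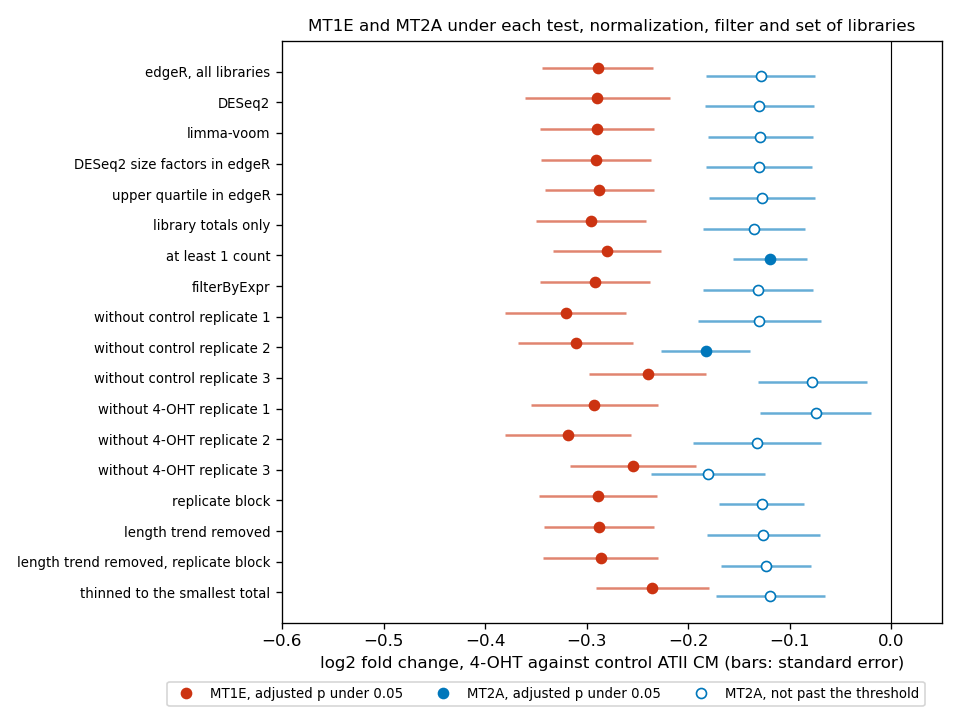
Log2 fold change of 4-OHT against control ATII CM, with its standard error, for MT1E (red) and MT2A (blue) under edgeR with all libraries and under each of the 17 alternatives. Filled points have an adjusted p under 0.05: all for MT1E, and for MT2A those with genes of at least 1 count and without control replicate 2.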

How the data were processed

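The deposited values are raw counts per gene in 1 column per library, which the authors made with featureCounts 1.6.5 after trimming (Trim Galore) and alignment to GRCh38 by HISAT2 2.1.0. Libraries came from polyA RNA (NEBNext Ultra kit). The annotation release, the strand setting and the treatment of reads with several places are not given in the sources used here.

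Of 58721 lines, 45 repeat an identifier of X on Y; counts of such pairs were added, which left 58676 identifiers. Genes with at least 10 counts over the 6 libraries (19072) were tested by quasi-likelihood in edgeR 4.0.16 under R 4.3.3 after TMM scaling, with no term but group, with Benjamini-Hochberg adjustment over all genes and a threshold of 0.05. DESeq2 1.42.0 and limma 3.58.1 (voom) were alternatives. Library totals of 17691849 to 26389449 leave little counting error for MT2A and MT1E and much for MT1X. Symbols and sequences came from GENCODE release 44 and RefSeq, and copies were searched with blastn 2.17.0. Scripts were tested on simulated data.

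The members, gene lists and tests were chosen with earlier results of these data known. Named were all members, list genes past the threshold, up to 3 genes per list by level, metallothionein genes and pseudogenes with any count and the 5 genes most like MT2A. Further genes were named after their values were seen: metallothionein genes at 0 counts, SLC39A7, SLC39A8, FKBP5, PER1, TSC22D3, marker genes, and list genes that passed the threshold in an alternative and not with all libraries.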

Additional observations from a re-analysis of the deposited data

How the results depend on the processing

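Of the 17 alternatives, 14 kept the number of DEGs within 1.5 times the 1090 found with all libraries. Leaving out a library gave 533 to 1530 DEGs, with 663 without control replicate 3, 533 without 4-OHT replicate 2 and 615 without 4-OHT replicate 3. Fewer libraries were fitted there, and the cause of the difference between them was not tested. The number of members that were DEGs was 1, and it was 2 with at least 1 count as the filter and without control replicate 2, where MT2A joined MT1E; leaving out a library gave 1 to 2. When all genes with at least 1 count were fitted, the number of DEGs was 1601, and filterByExpr gave 1172.

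Replicate numbers are shared between the groups, but libraries of the same number did not deviate together (correlations of -0.0145, -0.104 and -0.0931), so the numbers are not taken as pairs. With the replicate number as a block, 985 genes and 1 member (MT1E) were DEGs. MT1E, MT1X, MTF1, SLC30A1, MT1L, SLC39A6, SLC40A1, KLF9 and CRISPLD2 stayed on the same side of the threshold in all 17 alternatives. The summed level of the metallothioneins overlapped between groups under each of the 4 normalizations. In each case this was only because control replicate 2 lay below 4-OHT replicate 3. Without either of these libraries, the control libraries lay above those of 4-OHT ATII CM. Depth limits MT1X and the 4 members with few counts.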
